A study of Mus musculus with 18 samples.

Results

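The HoxB cluster was examined as 10 genes, Hoxb1 to Hoxb9 and Hoxb13, all found by gene identifier among the 56551 genes of a table of transcript levels in mouse embryonic stem cells. Each of 6 genotype groups held 3 libraries of total RNA. The groups were unmodified cells (WT) and cells labelled as knockouts of Ring1a (Ring1a-KO, gene Ring1), of Ring1b (Ring1b-KO, gene Rnf2), and of both (Ring1a/b-dKO). A further pair was labelled as lacking Pcgf1, Pcgf3, Pcgf5 and Pcgf6 (Pcgf-4KO), or those and also Pcgf2 and Pcgf4 (Pcgf-6KO), Pcgf4 being the product of Bmi1. No group carried a drug or transgene named by the labels, which give no strain, clone or culture day, nor whether replicates were grown apart. P-values therefore measure the spread between these libraries, which may be technical. Levels are in TPM, a transcript share per length scaled to a total of 1000000 per library, and the read depth behind each value is unknown.

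Hox genes encode homeodomain transcription factors that give cells their position along the head-to-tail axis. Within a cluster they lie in the order in which they are used, with genes of low number active earlier and further forward than genes of high number. In embryonic stem cells the clusters are held silent by Polycomb complexes. Polycomb repressive complex 1 (PRC1) carries Ring1a or Ring1b as its catalytic subunit, which ubiquitylates histone H2A. Each complex also holds 1 Pcgf protein: Pcgf2 and Pcgf4 define canonical PRC1, and Pcgf1, Pcgf3, Pcgf5 and Pcgf6 define variant PRC1.

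In the GRCm38 build the 10 genes lie on the plus strand of chromosome 11, over 173.9 kb from Hoxb13 at chr11:96194316-96197447 to Hoxb1 at chr11:96365752-96368256. Hoxb9 (chr11:96271457-96276595) is separated from Hoxb13 by 74.01 kb, while every other neighbouring pair is separated by 12.146 kb or less. From Hoxb9 the order runs through Hoxb8 (chr11:96281905-96285315), Hoxb7 (chr11:96286623-96290162), Hoxb6 (chr11:96292476-96301569) and Hoxb5 (chr11:96303336-96306121). It goes on through Hoxb4 (chr11:96318267-96321638), Hoxb3 (chr11:96323326-96347930) and Hoxb2 (chr11:96350525-96354012). The antisense gene Hoxb3os covers 52.929% of the exon bases of Hoxb3 and 27.322% of those of Hoxb2, and Hoxb5os covers 3.589% of those of Hoxb5. No source used here says that counting used the strand, so reads from Hoxb2 or Hoxb3 and from Hoxb3os cannot be told apart where these genes overlap. The other 7 members have no exon base in common with another gene.

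RefSeq promoter windows (GRCm38.p6, 250 bases before to 50 after the start) were matched for 3 of the 10 members. All 3 rose in the double knockout, and Hoxb4 and Hoxb8 rose in Pcgf-6KO. Hoxb1 was higher there too, but was tested only because it is high in that group. In Pcgf-4KO Hoxb4 rose, and Hoxb8 and Hoxb1 were not called. The 250 bases upstream of each start are shown for these members because no others had a window. All run along the plus strand, 5′ to 3′, with CG dinucleotides in capitals. They are chr11:96318017-96318266 for Hoxb4, chr11:96281655-96281904 for Hoxb8 and chr11:96365508-96365757 for Hoxb1.
Hoxb4: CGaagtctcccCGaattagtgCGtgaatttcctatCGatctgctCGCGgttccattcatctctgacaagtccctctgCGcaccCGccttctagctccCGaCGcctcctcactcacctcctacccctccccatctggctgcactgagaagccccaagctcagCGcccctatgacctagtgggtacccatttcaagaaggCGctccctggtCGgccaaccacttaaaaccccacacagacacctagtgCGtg
Hoxb8: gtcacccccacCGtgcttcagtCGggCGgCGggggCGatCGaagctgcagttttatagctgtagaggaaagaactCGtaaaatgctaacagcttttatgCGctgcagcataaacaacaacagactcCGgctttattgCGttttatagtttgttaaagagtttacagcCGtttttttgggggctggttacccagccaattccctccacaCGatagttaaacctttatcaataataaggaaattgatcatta
Hoxb1: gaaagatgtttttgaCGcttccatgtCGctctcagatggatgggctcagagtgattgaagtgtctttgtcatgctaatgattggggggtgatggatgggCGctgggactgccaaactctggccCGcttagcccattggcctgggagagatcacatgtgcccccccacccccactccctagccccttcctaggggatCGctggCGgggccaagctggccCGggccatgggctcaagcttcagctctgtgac
The printed stretches hold 14, 12 and 7 CG dinucleotides for Hoxb4, Hoxb8 and Hoxb1. Over the whole 300-base windows the counts were 14, 13 and 10, and the median of 32851 promoter windows was 7 (quartiles 3 and 20). On both strands of these 3 windows, the retinoic acid receptor core site AGGTCA was found once, in Hoxb4 (16.3% of all windows hold it), and TATAAA at 2 places, both in Hoxb8 (13.6% of all windows). CACGTG, the E-box, and GCGGGAA, an E2F-type site, were in none of them and in 7.2% and 4.6% of all windows. These are counts of letters in a short window. No binding was measured, and no link between sequence and level was tested.

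The targeted genes were read first as a check of the labels. Ring1 stood at 7.42, 7.1 and 7.11 TPM in WT, at 5.46, 3.83 and 2.86 in Ring1a-KO and at 2.74, 6.12 and 9.4 in the double knockout, where the third library was above WT. Rnf2 was 71.26 ± 5.24 TPM (SD, n = 3) in WT, 49.37 ± 3.13 in Ring1b-KO and 22.76 ± 2.94 in the double knockout. Mean Pcgf6 was 53.01 TPM in WT and 10.63 in Pcgf-6KO, and its Pcgf-4KO libraries stood at 0.07, 0 and 0.1. Going from WT to Pcgf-4KO and Pcgf-6KO, mean levels were 10.93, 1.227 and 3.033 TPM for Pcgf1, 68.57, 55.28 and 16.77 for Pcgf2, and 13.16, 11.79 and 12.4 for Pcgf3. Pcgf5 and Bmi1 were above WT in both groups, at 14.52 and 22.11 TPM against 9.553, and at 11.42 and 15.59 against 1.603. A gene total does not show which exons were removed, so it does not check a deletion that leaves a transcript behind, and groups are called here by their labels. Without the library labelled Ring1a/b-dKO replicate 3, 9 of the 9 HoxB genes still tested were called against WT, 8 against Ring1b-KO, 9 against Pcgf-4KO and 3 against Pcgf-6KO. With all libraries, 48.6%, 41.1%, 22.1% and 28.3% of all genes were called in the members' direction in these comparisons. The counts do not check the labels of the remaining double knockout libraries. Libraries held 14207 to 16585 genes at 1 TPM or more. Small RNA genes took 0.21% to 0.666% of TPM, except 2.88% and 1.32% in Ring1a-KO replicates 2 and 3. All 8 pluripotency markers were at 1 TPM or more in every group. Y-linked transcripts summed to 132 to 150 TPM in WT, 71.0 to 78.0 in Ring1b-KO, 83.6 to 117 in Pcgf-6KO and 9.01 to 16.2 in the other 3 groups. A difference of origin between lines and the genotype cannot be told apart.

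Before any knockout is considered, the cluster was close to silent. In WT, 14 of the 30 values (10 genes in 3 libraries) were listed at 0 and the highest was 0.29 TPM, for Hoxb7 in replicate 1. In Ring1a-KO, 17 of 30 were listed at 0 and the highest was 0.46 TPM, also for Hoxb7. The 10 genes summed to 0.61, 0.2 and 0.44 TPM in the 3 WT libraries and to 0.67, 0.46 and 0.64 TPM in Ring1a-KO, ranges that overlap. A value of 0 can be a failed estimate, since 86 genes whose median was 5 TPM or more had a 0 in some library. In such bulk RNA, few cells with a gene on and little RNA in every cell cannot be told apart.

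The sum was far higher in the other 4 groups, and no library of one group overlapped another. It was 20.1, 18.1 and 19.76 TPM in Ring1b-KO, and 40.02, 42.65 and 44.5 TPM in the double knockout. Pcgf-4KO libraries summed to 8.79, 8.24 and 9.16 TPM, those of Pcgf-6KO to 54.12, 60.1 and 55.14 TPM. The rising order was therefore Pcgf-4KO, Ring1b-KO, Ring1a/b-dKO and Pcgf-6KO. The highest value of any member in any library was 16.45 TPM, for Hoxb9 in Pcgf-6KO.

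**Figure D1:**
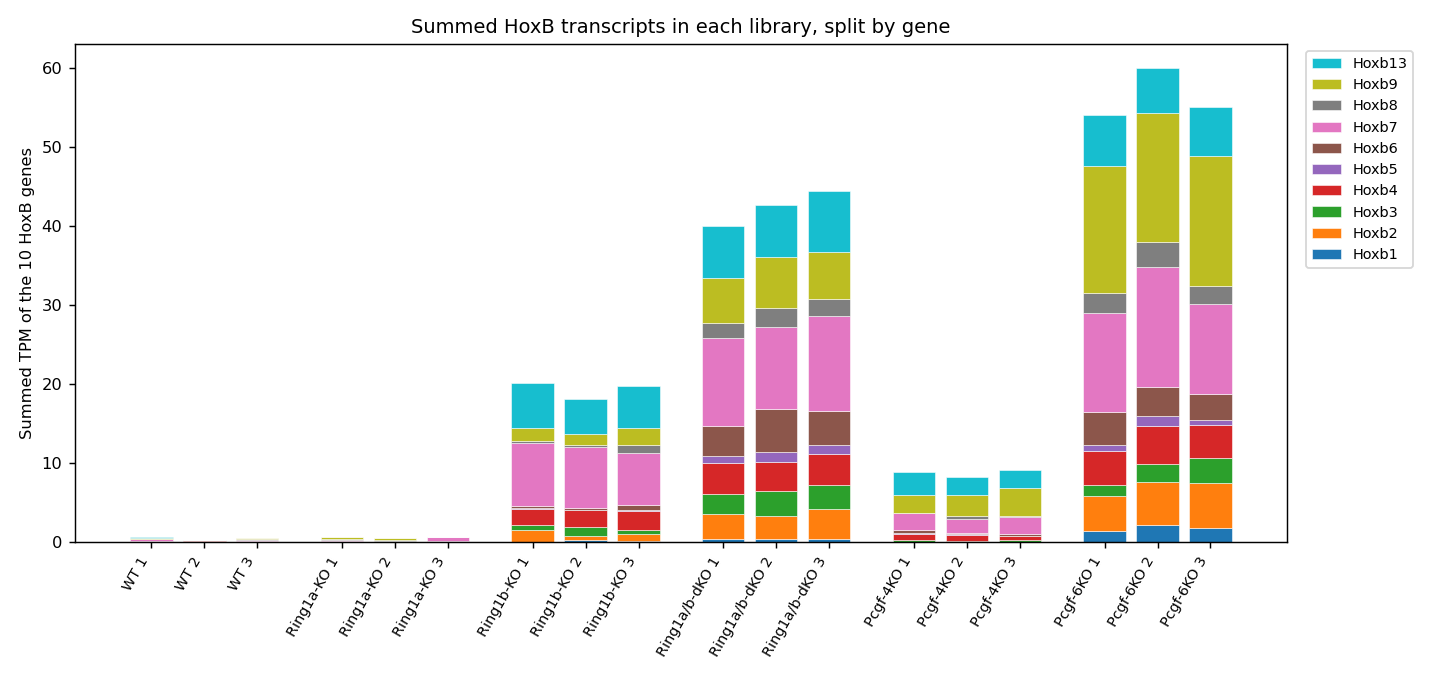
Summed TPM of the 10 HoxB genes (y axis) in each of the 18 libraries (x axis, grouped by genotype and numbered by replicate), with each bar split by gene. WT and Ring1a-KO bars stay at or under 0.67 TPM, and the other 4 groups form separate steps from 8.24 to 60.1 TPM.

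At the 3′, anterior end of the cluster, Hoxb1 sets the identity of a single segment of the hindbrain. Its levels were 0, 0.12 and 0 TPM in WT, then 0.03, 0.21 and 0.12 in Ring1b-KO and 0.38, 0.32 and 0.31 in the double knockout. It was listed at 0 in all Ring1a-KO and Pcgf-4KO libraries. In Pcgf-6KO it reached 1.33, 2.13 and 1.8 TPM, above every library of every other group.

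Hoxb2, which acts with Hoxb1 in hindbrain motor neurons, was listed at 0 in 2 WT libraries and at 0.04 TPM in the third, and at 0 throughout Ring1a-KO and Pcgf-4KO. It stood at 1.45, 0.56 and 0.81 TPM in Ring1b-KO, at 3.17, 3.0 and 3.88 with both Ring1 genes targeted, and at 4.45, 5.48 and 5.66 in Pcgf-6KO. The 3 raised groups did not overlap. Hoxb3, a gene of the hindbrain and pharyngeal arches, was at most 0.04 TPM in WT and at most 0.1 in Ring1a-KO. Its levels were 0.59, 1.11 and 0.54 TPM in Ring1b-KO and 2.52, 3.13 and 3.02 in the double knockout. Pcgf-4KO libraries stood at 0.21, 0.1 and 0.19 TPM, and those of Pcgf-6KO at 1.42, 2.21 and 3.15 TPM. The double knockout and Pcgf-6KO overlapped for Hoxb3.

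Hoxb4, known for expanding blood stem cells, was 0.05 TPM in each WT library and 0.03 to 0.12 in Ring1a-KO. It was 2.08, 2.09 and 2.46 TPM in Ring1b-KO and 3.86, 3.68 and 3.98 in the double knockout. In Pcgf-4KO the values were 0.82, 0.82 and 0.55 TPM, with 4.27, 4.89 and 4.25 TPM for Pcgf-6KO. These 4 groups did not overlap. Hoxb5, which works in gut neural crest and lung, was at most 0.04 TPM in WT and listed at 0 in all of Ring1a-KO. It was 0.18, 0.04 and 0.13 TPM in Ring1b-KO and 0.92, 1.25 and 1.08 in the double knockout. Pcgf-4KO libraries stood at 0.08, 0.04 and 0 TPM, and those of Pcgf-6KO at 0.85, 1.24 and 0.55 TPM. Ring1b-KO overlapped Pcgf-4KO, and the double knockout overlapped Pcgf-6KO.

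In the middle of the cluster, Hoxb6 was listed at 0 in all 6 WT and Ring1a-KO libraries. It was 0.26, 0.27 and 0.56 TPM in Ring1b-KO and 3.83, 5.41 and 4.26 in the double knockout. In Pcgf-4KO the values were 0.42, 0.17 and 0.19 TPM, with 4.07, 3.63 and 3.35 TPM for Pcgf-6KO. Ring1b-KO and Pcgf-4KO overlapped at a low level, and the double knockout and Pcgf-6KO at a high one. Its neighbour Hoxb7, a trunk gene, was the most abundant member in Ring1b-KO and in the double knockout. Hoxb7 was 0.29, 0 and 0.11 TPM in WT, 0.11, 0.03 and 0.46 in Ring1a-KO, 7.9, 7.79 and 6.68 in Ring1b-KO and 11.09, 10.45 and 12.11 in the double knockout. Pcgf-4KO libraries stood at 2.09, 1.76 and 2.22 TPM, and those of Pcgf-6KO at 12.6, 15.27 and 11.37 TPM, a range that met that of the double knockout.

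Hoxb8, used in the spinal cord and able to hold myeloid progenitors in an immature state, was at most 0.06 TPM in WT and 0.14 in Ring1a-KO. It was 0.3, 0.23 and 1.03 TPM in Ring1b-KO and 1.96, 2.4 and 2.18 in the double knockout. Pcgf-4KO libraries stood at 0, 0.38 and 0.08 TPM, and those of Pcgf-6KO at 2.61, 3.15 and 2.35 TPM. Replicate 3 of Ring1b-KO stood above the other 2. Hoxb9, which patterns the thoracic skeleton, was 0.03, 0.03 and 0.11 TPM in WT and 0.19, 0.24 and 0.05 in Ring1a-KO. It was 1.61, 1.41 and 2.15 TPM in Ring1b-KO and 5.7, 6.4 and 5.97 in the double knockout. In Pcgf-4KO the values were 2.36, 2.6 and 3.53 TPM, with 16.07, 16.34 and 16.45 TPM for Pcgf-6KO. Hoxb9 was the 1 member whose Pcgf-4KO libraries all lay above those of Ring1b-KO.

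Hoxb13, the distant 5′ member that closes axial growth at the tail and is active in the prostate, was 0.18, 0 and 0 TPM in WT and 0.11, 0 and 0 in Ring1a-KO. It was 5.7, 4.39 and 5.28 TPM in Ring1b-KO and 6.59, 6.61 and 7.71 in the double knockout. Pcgf-4KO libraries stood at 2.81, 2.37 and 2.4 TPM, and those of Pcgf-6KO at 6.45, 5.76 and 6.21 TPM. The double knockout was highest and did not overlap Pcgf-6KO, whose lowest library (5.76) was only just above the highest of Ring1b-KO (5.7).

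**Figure D2:**
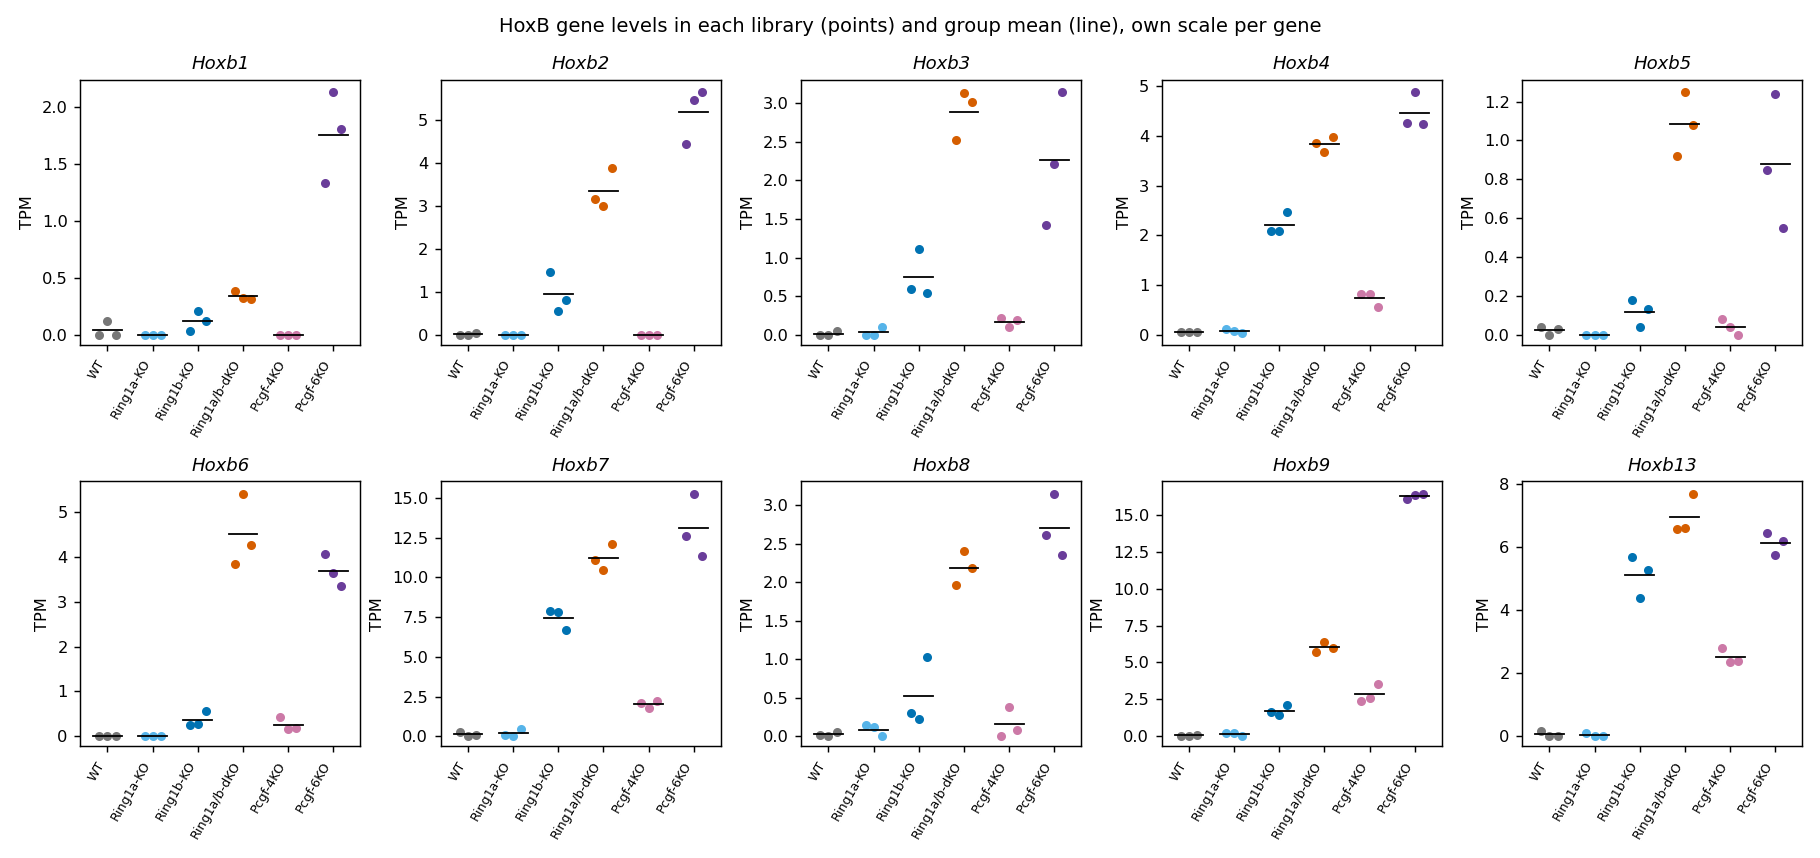
TPM of each HoxB gene (y axis, own scale per panel) in the 3 libraries of each genotype (points) with the group mean (line). All Pcgf-6KO points of Hoxb1, Hoxb2, Hoxb4 and Hoxb9 lie above all other points, those of the double knockout do so for Hoxb13, and the other panels differ most in where Ring1b-KO and Pcgf-4KO fall.

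The comparisons between groups were made with limma on log2(TPM + 1). This scale understates change where levels are low, as they are for the whole cluster. A gene was called at a Benjamini-Hochberg adjusted p under 0.05 over the 17842 genes tested. Values are differences in log2(TPM + 1), as estimate ± SE. Where the reference group is listed at 0 in all libraries, as WT is for Hoxb6 and Pcgf-4KO is for Hoxb1 and Hoxb2, they give no fold. All 10 members were tested, but 0 of them reached 1 TPM in WT, so each passed the filter of 1 TPM in at least 3 libraries through the knockouts. Counts of rises against WT are partly set by that filter. Hoxb5 and Hoxb6 reached 1 TPM only in libraries of the double knockout and Pcgf-6KO. Outside those groups, Hoxb2, Hoxb3 and Hoxb8 reached it only in a single Ring1b-KO library each (1.45, 1.11 and 1.03 TPM). They too passed the filter through the double knockout and Pcgf-6KO. Counts of members higher in the double knockout or Pcgf-6KO than in Ring1b-KO or Pcgf-4KO are therefore partly set by the filter too. Hoxb1 reached 1 TPM only in the 3 Pcgf-6KO libraries, so it was tested only because it is high there, and its differences between Pcgf-6KO and any other group are given as a description. Each count of rises against WT is given beside the share of all tested genes called higher. It is also given beside the share among the 3622 tested genes that were also under 1 TPM in WT.

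In Ring1a-KO 0 of 10 members were called against WT, and 0 had an unadjusted p under 0.05, while 12.3% of all tested genes were called higher and 10.8% lower. Among genes under 1 TPM in WT 6.82% were called higher. The median difference of the members was 0.01, as was that of all genes. The largest member value was 0.13 ± 0.12 for Hoxb9 (adjusted p = 0.484). The other Hox clusters gave 0 calls among 27 tested genes. With Ring1a-KO replicates 2 and 3 left out, 2149 rather than 4123 genes were called, and still 0 members.

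In Ring1b-KO 8 of 10 members rose, against 34.7% of all genes and 49.1% of those under 1 TPM in WT. The median was 0.84 over the members and 0.13 over all genes. Hoxb7 rose by 2.90 ± 0.14 (adjusted p = 1.91e-10), Hoxb13 by 2.53 ± 0.10 (3.17e-11) and Hoxb4 by 1.61 ± 0.09 (1.07e-09). Hoxb9 (1.36 ± 0.12), Hoxb2 (0.91 ± 0.14) and Hoxb3 (0.77 ± 0.16) followed. Hoxb8 (0.53 ± 0.17) and Hoxb6 (0.44 ± 0.12) were the smallest rises called. Hoxb1 (0.11 ± 0.11, adjusted p = 0.443) and Hoxb5 (0.12 ± 0.12, 0.41) were not called. The Hoxb8 call was lost without Ring1b-KO replicate 3 (0.30) and with only the compared groups in the model (0.53). Both Hoxb8 and Hoxb6 lost their calls under quantile normalization (0.24 and 0.29).

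In the double knockout 10 of 10 members rose, against 48.6% of all genes and 55.5% of those under 1 TPM in WT, with a median of 2.15 against 0.28 over all genes. Hoxb7 rose most, by 3.44 ± 0.14 (adjusted p = 1.49e-11), then Hoxb13 by 2.91 ± 0.10 and Hoxb9 by 2.73 ± 0.12. Hoxb6, Hoxb4 and Hoxb2 rose by 2.45 ± 0.12, 2.20 ± 0.09 and 2.1 ± 0.14. Hoxb3 (1.94 ± 0.16), Hoxb8 (1.63 ± 0.17) and Hoxb5 (1.02 ± 0.12) rose less. Hoxb1 rose by 0.36 ± 0.11 (adjusted p = 0.00841), a call lost under quantile normalization (0.18).

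In Pcgf-4KO 5 of 10 members rose, close to the 47.1% of all genes and the 54.2% of those under 1 TPM in WT that did so, and the members' median of 0.27 was close to the 0.25 of all genes. The 5 were Hoxb9 (1.85 ± 0.12, adjusted p = 2.46e-09), Hoxb13 (1.74 ± 0.10), Hoxb7 (1.42 ± 0.14), Hoxb4 (0.72 ± 0.09) and Hoxb6 (0.33 ± 0.12, adjusted p = 0.0276). Hoxb6 lost its call when Pcgf-4KO replicate 1 (0.24) or any 1 WT library (0.33) was left out and under quantile normalization (0.26). Hoxb1 (-0.05 ± 0.11), Hoxb2 (-0.02 ± 0.14), Hoxb3 (0.20 ± 0.16), Hoxb5 (0.02 ± 0.12) and Hoxb8 (0.15 ± 0.17) were not called. With a pseudocount of 0.1, or with only the compared groups in the model, Hoxb3 was called too (1.23 and 0.20).

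In Pcgf-6KO 10 of 10 members were called higher, against 51.7% of all genes and 71.0% of those under 1 TPM in WT, with a median of 2.30 against 0.33 over all genes. Hoxb9 rose most, by 4.03 ± 0.12 (adjusted p = 1.48e-13), followed by Hoxb7 (3.63 ± 0.14) and Hoxb13 (2.76 ± 0.10). Hoxb2 (2.61 ± 0.14), Hoxb4 (2.38 ± 0.09) and Hoxb6 (2.22 ± 0.12) came next. Hoxb8 (1.85 ± 0.17), Hoxb3 (1.65 ± 0.16) and Hoxb5 (0.86 ± 0.12) rose less, and the Hoxb1 difference was 1.40 ± 0.11. These 5 comparisons share the WT libraries.

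The double knockout was set against Ring1b-KO, from which it differs by label in Ring1a. The groups also differed in Rnf2 (means of 22.76 and 49.37 TPM) and in Y-linked sums (9.01 to 12.4 and 71.0 to 78.0 TPM). Loss of Ring1a and a difference between lines therefore cannot be told apart. Of the 10 members 9 were higher in the double knockout, against 41.1% of all genes and 35.4% of those under 1 TPM in WT. The median was 1.0 over the members and 0.17 over all genes, and all 10 members had no overlap between the groups (45.7% of all genes were higher without overlap). Hoxb6 differed most, by 2.01 ± 0.12 (adjusted p = 2.39e-09). Hoxb9 (1.37 ± 0.12), Hoxb2 (1.19 ± 0.14), Hoxb3 (1.17 ± 0.16) and Hoxb8 (1.10 ± 0.17) were next. Hoxb5 (0.90 ± 0.12), Hoxb4 (0.59 ± 0.09), Hoxb7 (0.53 ± 0.14) and Hoxb13 (0.38 ± 0.10) differed less. Hoxb1 was not called (0.26 ± 0.11, adjusted p = 0.0528), but was at a pseudocount of 0.1 (1.07), with no filter (0.26) or without Ring1b-KO replicate 2 (0.32). The Hoxb13 difference lost its call at a pseudocount of 0.1 (0.44), under median ratio scaling (0.22) and under quantile normalization (0.11). The Hoxb7 difference lost it at a pseudocount of 0.1 (0.58) and under quantile normalization (0.27).

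Whether the double knockout exceeded the sum of the single knockouts was tested as an interaction term between both knockouts on the log2 scale. It was positive and called for 8 of 10 members, against 33.2% of all genes and 26.8% of those under 1 TPM in WT, with a median of 0.98 against 0.15 over all genes. WT and Ring1a-KO were both close to silent, so the term nearly repeats the difference between the double knockout and Ring1b-KO. For Hoxb6 both values were 2.01, and for Hoxb2 they were 1.20 and 1.19. It is therefore not a separate result. The count is also partly set by the filter, which several members passed through the double knockout and Pcgf-6KO. The term was 2.01 ± 0.17 for Hoxb6 (adjusted p = 2.19e-07), 1.24 ± 0.17 for Hoxb9, 1.20 ± 0.20 for Hoxb2 and 1.14 ± 0.23 for Hoxb3. It was 1.02 ± 0.24 for Hoxb8, 0.93 ± 0.17 for Hoxb5, 0.56 ± 0.13 for Hoxb4 and 0.41 ± 0.15 for Hoxb13 (adjusted p = 0.0318). Hoxb7 (0.46 ± 0.20, adjusted p = 0.0703) and Hoxb1 (0.31 ± 0.15, 0.108) were not called. At a pseudocount of 0.1 the count was 5, as Hoxb4, Hoxb8 and Hoxb13 dropped out, and without the library labelled Ring1a/b-dKO replicate 3 it was 6. The Hoxb13 term also lost its call with no filter (0.41), under median ratio scaling (0.25) and quantile normalization (0.14), and without any 1 of 5 libraries (WT replicate 1, Ring1a-KO replicate 2 or 3, Ring1b-KO replicate 2 or Ring1a/b-dKO replicate 3; 0.32 to 0.39), while Hoxb7 was called without WT replicate 2 (0.54) or Ring1a-KO replicate 3 (0.61).

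The variant PRC1 subunits were set against the catalytic ones next. All 10 members were lower in Pcgf-4KO than in the double knockout, against 22.1% of all genes and 21.8% of those under 1 TPM in WT. The median was -1.48 over the members and -0.04 over all genes, and 10 of 10 members did not overlap (30.8% of all genes were lower without overlap). Hoxb2 and Hoxb6 differed most, at -2.12 ± 0.14 and -2.12 ± 0.12, followed by Hoxb7 at -2.02 ± 0.14 (adjusted p = 5.59e-08). Hoxb9 at -0.89 ± 0.12 and Hoxb1 at -0.42 ± 0.11 differed least, the latter from a level of at most 0.38 TPM.

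Pcgf-6KO differs from Pcgf-4KO by label in Pcgf2 and Pcgf4. All 10 members, with Hoxb1 again tested only through Pcgf-6KO, were higher in Pcgf-6KO, against 28.8% of all genes and 39.8% of those under 1 TPM in WT, with a median of 1.68 against 0.03. Hoxb2 differed most, by 2.63 ± 0.14 (adjusted p = 7.49e-10), and was listed at 0 in all Pcgf-4KO libraries. Hoxb7 and Hoxb9 differed by 2.21 ± 0.14 and 2.19 ± 0.12, Hoxb6 by 1.90 ± 0.12 and Hoxb8 by 1.69 ± 0.17. Hoxb4 (1.66 ± 0.09), Hoxb1 (1.45 ± 0.11), Hoxb3 (1.45 ± 0.16), Hoxb13 (1.02 ± 0.10) and Hoxb5 (0.84 ± 0.12) differed less.

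Set against the double knockout, Pcgf-6KO was higher for 3 members, Hoxb9 (1.30 ± 0.12, adjusted p = 2.60e-07), Hoxb2 (0.51 ± 0.14, 0.00532) and Hoxb1 (1.03 ± 0.11), and lower for 0. The Hoxb1 difference is a description here too, for the reason given above, and with no filter on low values it was called at the same 1.03. Of all genes 28.3% were called higher and 29.6% lower, so the share of members called, 3 of 10, was near the background. The Hoxb2 difference was not called at a pseudocount of 0.1 (0.62). The other 7 members differed by -0.29 ± 0.16 (Hoxb3) to 0.22 ± 0.17 (Hoxb8). Among these, Hoxb4 was higher (0.17 ± 0.09) and Hoxb13 lower (-0.16 ± 0.10) with no overlap between libraries but without a call, while 29.8% of all genes were higher and 30.7% lower without overlap. Without Pcgf-6KO replicate 3, Hoxb3 was called lower (-0.48).

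**Figure D3:**
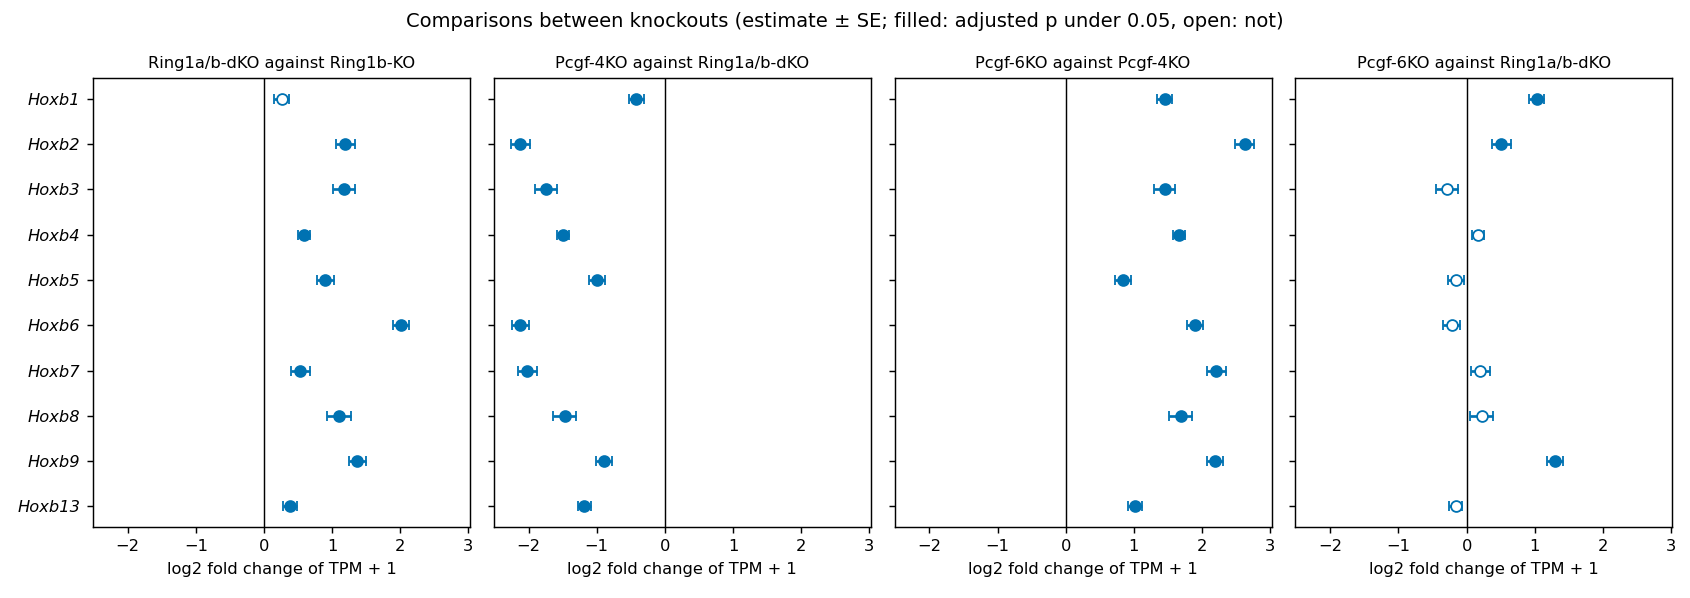
Log2 fold change on the log2(TPM + 1) scale (x axis, estimate ± SE) of each HoxB gene (y axis) in 4 comparisons between knockouts, with filled points called at an adjusted p under 0.05. All 10 genes lie left of 0 for Pcgf-4KO against the double knockout and right of 0 for the double knockout against Ring1b-KO and Pcgf-6KO against Pcgf-4KO, while 3 (Hoxb1, Hoxb2 and Hoxb9) have a call for Pcgf-6KO against the double knockout.

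Scaled to the mean of the double knockout, which removes differences in level between genes, the groups gave different profiles along the cluster. In Ring1b-KO, Hoxb13 was at 73.5% ± 9.60 (SD, n = 3), Hoxb7 at 66.5% ± 6.02 and Hoxb4 at 57.6% ± 5.64 of the double knockout. Hoxb6 was at 8.07% ± 3.79 and Hoxb5 at 10.8% ± 6.55, although Hoxb6 lies next to Hoxb7. The 5 remaining members were between 23.9% and 35.6%. In Pcgf-4KO, Hoxb9 was at 47.0% ± 10.3 and Hoxb13 at 36.3% ± 3.53, Hoxb4 and Hoxb7 were at 19.0% ± 4.06 and 18% ± 2.11, and the other 6 were at or under 7.03%, with Hoxb1 and Hoxb2 listed at 0. In Pcgf-6KO, Hoxb1 was at 521% ± 119, Hoxb9 at 270% ± 3.25 and Hoxb2 at 155% ± 19.5, while the other 7 lay between 78.2% and 124%. The Hoxb1 percentages are taken of a double knockout mean of only 0.3367 TPM.

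The order of these percentages from Hoxb1 to Hoxb13 was summarised by Spearman's rho over the 10 genes. It was 0.83 in Pcgf-4KO, 0.19 in Ring1b-KO and -0.08 in Pcgf-6KO. Neighbouring genes share their region and all percentages share the double knockout libraries, so these are descriptions with no test. In Pcgf-4KO, Hoxb1, Hoxb2, Hoxb3, Hoxb5, Hoxb6 and Hoxb8 had means of at most 0.26 TPM, so their order among themselves lies near the floor. In Pcgf-4KO the 5′ pair Hoxb9 and Hoxb13 was highest and the 3′ pair Hoxb1 and Hoxb2 was listed at 0, while Hoxb4 lay above Hoxb5, Hoxb6 and Hoxb8.

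**Figure D4:**
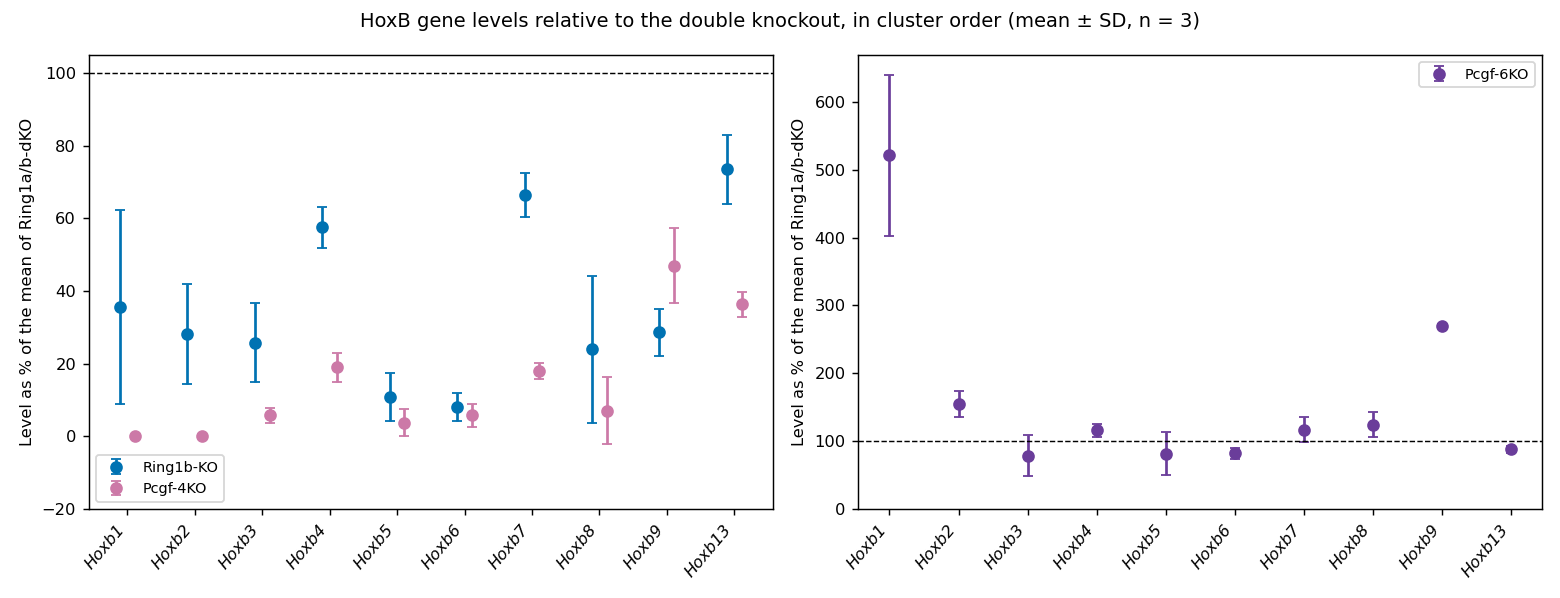
Level of each HoxB gene as a percentage of its mean in the double knockout (y axis, mean ± SD, n = 3) in cluster order (x axis), for Ring1b-KO and Pcgf-4KO at left and Pcgf-6KO at right, with a dashed line at 100%. Ring1b-KO shows separate high points at Hoxb4, Hoxb7 and Hoxb13, Pcgf-4KO is highest at Hoxb9 and Hoxb13, and Pcgf-6KO stands well above the line at Hoxb1 and Hoxb9.

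The make-up of the summed cluster transcript also differed between groups. Hoxb7 and Hoxb13 gave 38.7% ± 4.64 and 26.4% ± 2.07 of the sum in Ring1b-KO and 26.5% ± 1.73 and 16.4% ± 0.914 in the double knockout. Hoxb6 gave 1.87% ± 0.838 in Ring1b-KO and 10.6% ± 1.80 in the double knockout. Hoxb9 gave 8.89% ± 1.72 in Ring1b-KO and 14.2% ± 0.795 in the double knockout, against 32.3% ± 5.88 in Pcgf-4KO and 28.9% ± 1.49 in Pcgf-6KO. The Hoxb9 share was thus higher in every library of both Pcgf groups than in any of the Ring1 groups with a raised cluster. Across all 18 libraries, the log2 level of each member correlated with the mean of the other 9 at a Pearson r of 0.776 (Hoxb1) to 0.98 (Hoxb4). The points fall into genotype groups, so r mostly describes the differences between groups.

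Other transcripts of the region were read by position. Gm53, a long noncoding RNA in the gap between Hoxb13 and Hoxb9 (chr11:96251105-96264868), was 0.92, 0.84 and 1.36 TPM in WT and 1.82, 2.8 and 3.36 TPM in Ring1a-KO, a rise of 0.83 ± 0.15 (adjusted p = 0.00123) in a group where no HoxB gene was called. The Ring1a-KO libraries with the larger small RNA share had the 2 highest Gm53 values of that group, and with both left out the difference was 0.48 and not called. Gm53 was 15.18 ± 0.737 TPM in Ring1b-KO and 22.91 ± 2.19 in the double knockout, against 16.38 ± 0.175 in Pcgf-4KO and 31.3 ± 6.11 in Pcgf-6KO. Its rise in Pcgf-4KO was 3.10 ± 0.15 (adjusted p = 1.31e-10), beside 1.85 ± 0.12 for Hoxb9 and 1.74 ± 0.10 for Hoxb13, the genes on its sides.

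Hoxb3os was listed at 0 in 2 WT libraries and at 0.12 TPM in the third. It was 3.0, 2.99 and 2.72 TPM in Ring1b-KO and 6.27, 4.07 and 5.36 in the double knockout. In Pcgf-4KO the values were 0.18, 0.11 and 0.15 TPM, with 7.7, 7.04 and 6.62 TPM for Pcgf-6KO. It rose by 1.91 ± 0.11 in Ring1b-KO, by 2.57 ± 0.11 in the double knockout and by 2.96 ± 0.11 in Pcgf-6KO, and was not called in Pcgf-4KO (0.14 ± 0.11, adjusted p = 0.287). At a pseudocount of 0.1 it was called there too (0.91), as was Hoxb3 (1.23), 1 of the genes it overlaps. Hoxb5os was listed at 0 in every library but double knockout replicate 3, at 20.76 TPM, and the microRNA genes Mir10a and Mir196a-1 were listed at 0 throughout. Gm27605, a short RNA gene next to Hoxb13, was 3.01, 36.67 and 2.94 TPM in Ring1b-KO and 2.62, 3.28 and 49.33 in Pcgf-6KO, so 1 library in each carried most of the signal.

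Outside the cluster, genes within 200 kb had profiles of their own. Calcoco2, an autophagy receptor gene 82.352 kb beyond Hoxb13, was 29.66 ± 0.319 TPM in WT, 157.7 ± 6.18 in Ring1b-KO and 70.69 ± 2.25 in the double knockout, against 347.4 ± 7.29 in Pcgf-4KO and 148.1 ± 3.64 in Pcgf-6KO. Among the 4 groups with a raised cluster, it was highest in Pcgf-4KO, where the HoxB sum was lowest. The groups did not otherwise follow that order, since Calcoco2 and the HoxB sum were both higher in Pcgf-6KO than in the double knockout. Ttll6, a tubulin-modifying enzyme gene 28.865 kb beyond Hoxb13, was 1.84 ± 0.201 TPM in WT, 4.403 ± 0.764 in Ring1b-KO and 2.727 ± 0.506 in the double knockout, against 5.387 ± 0.344 in Pcgf-4KO and 6.08 ± 0.552 in Pcgf-6KO. Its small rise in the double knockout (0.39 ± 0.13) was not called under median ratio scaling (0.20) or without WT replicate 3 (0.33) or Ring1a/b-dKO replicate 1 (0.28), and reversed under quantile normalization (-0.20). Ube2z, a ubiquitin-conjugating enzyme gene at 128.928 kb, rose by 0.56 ± 0.05, 0.81 ± 0.05 and 0.67 ± 0.05 in the double knockout, Pcgf-4KO and Pcgf-6KO, and was not called in Ring1b-KO (-0.01 ± 0.05), where median ratio scaling called it lower (-0.09). On the Hoxb1 side, Skap1, an adaptor gene of T cells at 96.337 kb, rose in 4 knockouts from 0.12 ± 0.07 TPM in WT, by 0.36 ± 0.13 (Pcgf-4KO) to 0.91 ± 0.13 (double knockout), a direction that reversed for Pcgf-6KO under quantile normalization (-0.02). The Pcgf-4KO call was lost under median ratio scaling (0.31), under quantile normalization (0.05) and without WT replicate 2 (0.31), Pcgf-4KO replicate 1 (0.33) or Pcgf-4KO replicate 3 (0.36). Of the other 5 neighbours expressed here, Gm29202 was called higher in 4 of the 5 knockouts and Atp5g1 in 2, Snf8 was called higher and Igf2bp1 lower in Pcgf-6KO, and Gm37179 was called in 0.

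**Figure D5:**
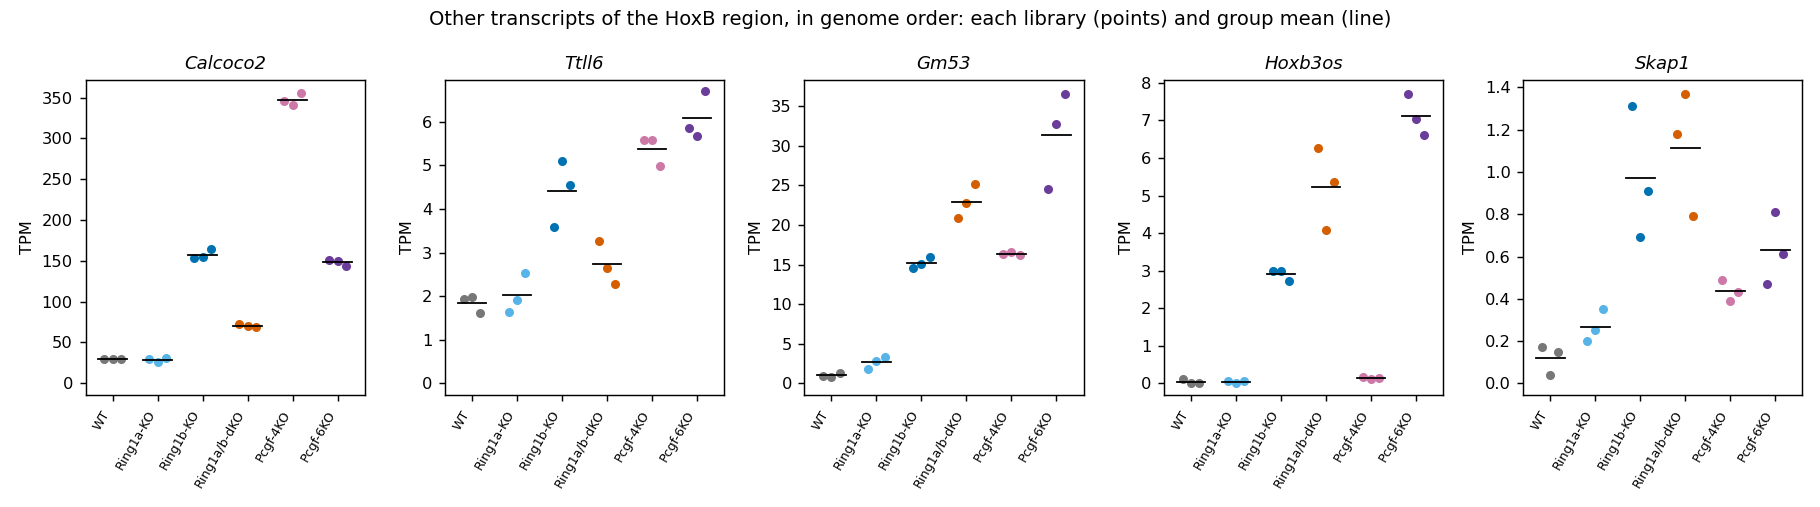
TPM (y axis, own scale per panel) of 5 other transcripts of the region in genome order, for the 3 libraries of each genotype (points) and the group mean (line). Hoxb3os is near 0 in Pcgf-4KO as in WT, Gm53 is raised in 4 groups, and Calcoco2 peaks in Pcgf-4KO at 347.4 TPM.

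The other 3 Hox clusters were read in the same way. Of their 29 genes 27 were tested. Against WT, 27 rose in Ring1b-KO and 27 in the double knockout, against 20 in Pcgf-4KO and 27 in Pcgf-6KO. Of all genes 34.7%, 48.6%, 47.1% and 51.7% rose, in that order. The medians of the 27 were 1.43, 2.17, 0.56 and 2.40. The HoxB medians beside these were 0.84, 2.15, 0.27 and 2.30. Between the double knockout and Ring1b-KO, 25 of 27 were higher (41.1% of all genes) with a median of 0.65, beside 1.0 for HoxB. The interaction was called positive for 20 of 27 (33.2% of all genes) with a median of 0.66, beside 0.98. In Pcgf-6KO against the double knockout, 8 of 27 were higher and 9 lower with a median of 0.01, while HoxB had 3 higher and 0 lower. The counts of the 27 were near the 28.3% and 29.6% of all genes called higher and lower. The difference between HoxB and the other clusters was not tested. The Hox genes most like the mean of HoxB over the 18 libraries were Hoxa11 (Pearson r = 0.995), Hoxc6 (0.985) and Hoxc10 (0.983). Outside the Hox clusters they were Zic1 (0.984), Dlx2 (0.979), Ikbip (0.978), Tfap2a (0.973) and Alx1 (0.971), 4 of them transcription factors of head, neural crest or neural tissue. Zic1 was at most 0.143 TPM on average in WT and Ring1a-KO, 2.7 ± 0.38 in Ring1b-KO and 9.49 ± 1.86 in the double knockout, against 1.22 ± 0.402 in Pcgf-4KO and 8.5 ± 0.834 in Pcgf-6KO.

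Genes known to act on the cluster or with its proteins were read from lists. Of 9 genes for Hox cofactors, the TALE homeodomain proteins that bind DNA with Hox factors, 3 rose and 2 fell in Ring1b-KO and 7 and 1 in the double knockout, against 5 and 1 in Pcgf-4KO, with 5 and 2 in Pcgf-6KO. Their medians in that order were 0.17, 0.67, 0.31 and 0.80, beside 0.13, 0.28, 0.25 and 0.33 over all genes. In the double knockout Meis1 rose by 2.68 ± 0.12 and Meis2 by 2.44 ± 0.28. Of 13 upstream regulators, 11 were tested: 4 rose and 4 fell in Ring1b-KO and 7 and 2 in the double knockout, against 6 and 3 in Pcgf-4KO, with 7 and 3 in Pcgf-6KO, with medians of 0.08, 0.84, 0.70 and 0.67. Cdx1 and Cdx2, homeobox genes of the posterior embryo that act upstream of Hox clusters, rose in the double knockout by 3.23 ± 0.09 and 3.10 ± 0.11, from 0.5267 ± 0.0153 and 0.1467 ± 0.0902 TPM in WT. In Pcgf-4KO, where only 5 HoxB genes were called, they rose by 2.06 ± 0.09 and 2.02 ± 0.11. The retinoic acid receptor genes Rara and Rarg fell in the double knockout by 0.70 ± 0.05 and 0.23 ± 0.04. Of 7 genes for Trithorax-type H3K4 methyltransferase complexes, which oppose Polycomb, 3 rose and 2 fell in the double knockout: Kmt2a rose by 1.13 ± 0.21 and Men1 by 0.36 ± 0.07, while Dpy30 fell by 0.81 ± 0.05 and Wdr5 by 0.37 ± 0.05. The Men1 call was lost under median ratio scaling (0.09). The same list gave 3 rises and 2 falls in Ring1b-KO, and 4 and 2 in each Pcgf group. Its median was 0.21 in Ring1b-KO, 0.11 in Ring1a/b-dKO, 0.30 in Pcgf-4KO and 0.23 in Pcgf-6KO. Of all genes, 17.1% were called lower in Ring1b-KO, 15.8% in Ring1a/b-dKO, 17.9% with the 4 Pcgf knockouts and 22.5% with the 6. The shares called higher were 34.7%, 48.6%, 47.1% and 51.7% in that order.

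Summed markers of other cell types differed between the same groups. The 8 primitive endoderm markers summed to 2.68 to 3.11 TPM in WT, 32.3 to 34.7 in Ring1b-KO, 39.0 to 41.3 in the double knockout, 25.5 to 30.4 in Pcgf-4KO and 34.4 to 41.6 in Pcgf-6KO, with 1 of 8 at a mean of 1 TPM or more in WT, 5 in Ring1b-KO and 6 in the last 3 groups, and with Ttr listed at 0 in all WT, Ring1a-KO and double knockout libraries. The 8 posterior mesoderm markers, cells in which HoxB genes are normally used, summed to 3.16 to 4.23 TPM in WT, 11 to 12.2 in Ring1b-KO, 20.8 to 22.9 in the double knockout, 8.31 to 9.14 in Pcgf-4KO and 9.8 to 12.8 in Pcgf-6KO. Of these 8, 0 reached a mean of 1 TPM in WT, 5 did in Ring1b-KO and Ring1a/b-dKO, and 2 in both Pcgf groups. Msgn1, a defining marker of the presomitic mesoderm, was listed at 0 in every library but double knockout replicates 1 and 3 (0.17 and 0.18). The 8 pluripotency markers summed to 4140 to 4200 TPM in WT, 3900 to 4210 in Ring1a-KO, 3420 to 3550 in Pcgf-4KO, 2600 to 2910 in the double knockout and 1710 to 2140 in Pcgf-6KO. Their sum of 7280 to 7920 TPM in Ring1b-KO was mostly that of Dppa5a, at a mean of 4761 TPM against 1794 in WT. Of the 8, 6 rose in Ring1b-KO and 2 fell (34.7% and 17.1% of all genes), with a median of 0.53. The 2 that fell were Pou5f1, at a mean of 1013 TPM against 1112 in WT, and Sox2, at 211.3 against 246.7. In Pcgf-4KO 4 pluripotency markers rose and 3 fell (47.1% and 17.9% of all genes), with a median of 0.14. In the double knockout 2 rose and 6 fell (48.6% and 15.8%), with a median of -0.8. In Pcgf-6KO 1 rose and 7 fell (51.7% and 22.5%), with a median of -1.08. The 8 neural markers summed to 52.0 to 54.9 TPM in WT, 65.0 to 77.3 in Ring1a-KO, 35.2 to 38.2 in Ring1b-KO, 43.1 to 45.6 in the double knockout, 37.1 to 41.5 in Pcgf-4KO and 15.2 to 19.0 in Pcgf-6KO. Of these 8, 5 were at a mean of 1 TPM or more in WT and 7 in Pcgf-6KO. In Pcgf-6KO 1 rose and 4 fell (51.7% and 22.5% of all genes). Blood progenitor markers summed to 16.8 to 18.5 TPM in WT, to 28.4 to 31.6 in the double knockout, to 21.6 to 24.6 in Pcgf-4KO and to 15.0 to 21.8 over the other 3 groups, with Hbb-bh1 listed at 0 in all groups but Pcgf-6KO. Fibroblast markers summed to 13.6 to 16.4 TPM in WT, 19.7 to 24.6 over Ring1b-KO and the double knockout, 16.1 to 18.2 in Ring1a-KO and 9.09 to 14.3 over both Pcgf groups. Only 1 of these 8 was at a mean of 1 TPM or more in WT, and at most 3 in any group. Sums can hide opposite moves: in Ring1b-KO, 1 neural marker rose and 4 fell, and 3 blood progenitor markers rose and 2 fell. The part of other cell types in the HoxB levels was not tested.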

How the data were processed

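The authors deposited TPM values for 56551 genes in 18 libraries; per the submitters' processing notes, TopHat2 2.1.1, RSEM, edgeR and the build GRCm38.p5 were used, with roles and strand setting not given in the sources used here. The 6 deposited columns of group means were not used. TPM keeps no read depth, so no counting interval is given. Members were matched by gene identifier, with positions from GENCODE vM21 (GRCm38) and promoter windows from RefSeq (GRCm38.p6).

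Values were taken as log2(TPM + 1). The 17842 genes that reached 1 TPM in 3 or more libraries were kept, with 1 mean per group over all 18 libraries in limma 3.58.1 (R 4.3.3; variances moderated with a mean trend; 12 residual degrees of freedom), two-sided, with Benjamini-Hochberg adjustment over all genes in each of 10 comparisons. The fit was tested on simulated data. A difference is called at an adjusted p under 0.05, and "rose" and "fell" are used for called differences. Alternatives were a pseudocount of 0.1, no filter, median ratio scaling, quantile normalization, a replicate block, only the groups compared, and each library left out. Leaving out Ring1a-KO replicates 2 and 3 together was chosen after seeing the data, and assumes that the remaining library varies like the other groups.

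The members, lists and tests were chosen with earlier results of these data known. Genes named beside the members are those within 200 kb of the cluster, up to 2 rises and 2 falls per list in a comparison, and the 5 genes and 3 Hox genes with the highest Pearson r with the HoxB mean over the 18 libraries, among those with a mean of 5 TPM (Hox genes 1 TPM) or more in their highest group. Homeodomain identity, planned as a description, was not computed here.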

Additional observations from a re-analysis of the deposited data

Results flagged for a closer look

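For 8 of the 10 HoxB genes, the difference that goes with the Ring1b knockout label depended on the Ring1a label. This was limma's test of the interaction on the log2(TPM + 1) scale. The value was 2.01 for Hoxb6, 1.24 for Hoxb9, 1.2 for Hoxb2, 1.14 for Hoxb3 and 1.02 for Hoxb8. It was 0.93 for Hoxb5, 0.56 for Hoxb4 and 0.41 for Hoxb13. Over all genes 33.2% were called in this direction. WT and Ring1a-KO were both close to silent, so these values nearly repeat the difference between the double knockout and Ring1b-KO. The filter on low values also partly sets the count. Hoxb4 and Hoxb8 lost their calls at a pseudocount of 0.1, and Hoxb13 lost its call there and under several other alternatives. Genotype and a difference between lines cannot be told apart here either. Groups of 3 libraries are too small for the test of single outlying libraries.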

How the results depend on the processing

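Of 1248 values for single members under an alternative, 1212 kept direction and side of the threshold, 28 lost a call, 8 gained one and 0 reversed. The cause of a lost or gained call was not tested. The interaction was called for 8 members, and for 5 at a pseudocount of 0.1. Leaving out 1 library gave 0 to 0 members called in Ring1a-KO, 7 to 8 in Ring1b-KO, 9 to 10 in the double knockout, 4 to 5 in Pcgf-4KO and 8 to 10 in Pcgf-6KO against WT. It gave 8 to 10 for the double knockout against Ring1b-KO, 9 to 10 for Pcgf-4KO and 2 to 3 for Pcgf-6KO against the double knockout, 8 to 10 for Pcgf-6KO against Pcgf-4KO and 6 to 9 for the interaction. Some lower counts arose because only 8 or 9 members then passed the filter. The replicate block changed no call of a member: its counts were 0, 8, 10, 5, 10, 9, 10, 3, 10 and 8, in the order of the comparisons above. Same-numbered libraries did not deviate together (r from -0.109 to 0.071 over 45 pairs, 32 of 90 cases best with their own number), so the numbers do not pair them. Over all genes, 4123 were called in Ring1a-KO, and 2149 without its replicates 2 and 3. The median shift of all genes against WT, 0.13 to 0.33 in the 4 groups with a raised cluster, was 0.05 to 0.14 under median ratio scaling, and the share of calls that were higher moved from 67.0%, 75.5%, 72.5% and 69.6% to 58.0%, 56.7%, 54.5% and 57.9%, and under quantile normalization to 46.4%, 48.2%, 49.6% and 46.6% (Ring1b-KO, double knockout, Pcgf-4KO, Pcgf-6KO). Of the other named genes, quantile normalization reversed Ttll6 in the double knockout (-0.20) and Skap1 (-0.02) and Men1 (-0.04) in Pcgf-6KO.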
